A study of Drosophila melanogaster with 6 samples.

Results

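Homeobox genes encode transcription factors that bind DNA through the homeodomain, a compact helical fold. In the fly they set the identity of segments, appendages and neuroblast lineages, and in neurons after division they help to fix cell type, targeting of axons and dendrites, and transmitter choice. The genes described here are 55 homeobox transcription factor genes chosen by symbol, out of 14138 named rows of the table. They cover the Hox genes, the TALE class, genes of the head, limbs and segments, NK and BarH genes, Pax and paired-like genes, and the sine oculis, LIM, POU, zinc-finger and Cut families. All 55 were in the table. Homeobox genes best known for projection neuron lineages, such as acj6 and vvl, were not among them. These serve as markers of the cells and belong to a comparison list of 42 other homeobox genes.

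The cells were olfactory projection neurons of Drosophila melanogaster, which carry odour signals out of the antennal lobe. The adult group held 3 libraries from untreated flies at 5 days, and the development group held 3 libraries from untreated pupae at 36 h after puparium formation (APF). About 2000 cells marked by GFP were sorted for each library, and cDNA was made by SMART-seq2, a full-length method for small RNA inputs. The labels give no strain, sex or driver of the GFP marker, and no statement that libraries came from separate flies, so a p-value here reflects differences among libraries that could be technical repeats. Levels are in CPM (reads of a gene scaled to a total of 1000000 per library), and recovered reads ranged from 18602612 to 42217764 per library.

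Projection neuron markers (9 genes) were summed as a description of the labelled cells. The list includes nSyb, elav, ChAT and VAChT, which are not particular to projection neurons, so the sum cannot identify the cells. The 9 markers summed to 3531 to 3831 CPM in adult libraries and 1934 to 2964 CPM in development libraries. Of the 8 tested, nSyb, ChAT and VAChT were higher in adult, and Oaz and vvl were lower (limma, adjusted p under 0.05). The most abundant, nSyb, had 2094 to 2358 CPM in adult and 1010 to 1734 CPM in development. ChAT had 556 to 586 CPM in adult and 37.6 to 53.7 CPM in development. The POU homeobox gene acj6 had 139.7 to 151.7 CPM in adult libraries and 161.6 to 180.8 CPM in development libraries. Oaz, a zinc-finger gene active in many projection neurons, had 283 to 304.6 CPM in adult and 427.3 to 484.3 CPM in development. Lim1, another homeobox gene of the marker list, was low, with 4.52 to 8.58 CPM in adult and 2.58 to 4.57 CPM in development. Markers of other cells also moved between the stages. Photoreceptor markers summed to 925 to 952 CPM in adult libraries and 275 to 292 CPM in development libraries. Nearly all of it was norpA, with 908 to 933 CPM in adult and 272 to 289 CPM in development. Of the others, trp had 7.02 to 15.7 CPM in adult and at most 1.19 CPM in development. In contrast, gl had 0.0492 to 1.04 CPM in adult and 1.27 to 1.99 CPM in development, and ninaE had at most 3.69 CPM. Muscle markers summed to 225 to 245 CPM in adult and 14.2 to 22.0 CPM in development, nearly all from Mef2 (223 to 243 CPM in adult, 6.72 to 16.9 CPM in development), whereas Mlc2 had 0.824 to 1.07 CPM in adult and 3.05 to 4.78 CPM in development, and up had at most 0.305 CPM in adult and 0.318 to 1.86 CPM in development. Markers of other transmitter types summed to 247 to 514 CPM in adult and 43.0 to 55.3 CPM in development. Of the 5 tested, 4 were higher in adult (Gad1, VGAT, Vmat and Trh), and VGlut did not pass (limma, adjusted p under 0.05). Gad1 had 98.1 to 120.4 CPM in adult and 1.27 to 3.49 CPM in development. Vmat was the highest of them by its mean over libraries, resting on 300.4 CPM in adult replicate 3. Gad1 exceeded Vmat in adult replicate 1, and VGlut exceeded Vmat in development replicates 2 and 3. Hemocyte markers summed to 84.1 to 90.4 CPM in adult and 39.3 to 60.5 CPM in development. Nearly all of it was crq (83.9 to 89.3 CPM in adult, 38.5 to 58.9 CPM in development), whereas Hml had at most 1.18 CPM. Olfactory receptor neuron markers summed to 23.5 to 37.5 CPM in adult and 1.71 to 4.30 CPM in development. The adult sum was nearly all Orco (23.2 to 36.0 CPM), whereas Or22a had 0 CPM in adult and 0.116 to 0.514 CPM in development. Dividing-cell markers were low (4.18 to 8.86 CPM in adult, 12.6 to 17.7 CPM in development). Most of this sum was PCNA, with 3.30 to 7.13 CPM in adult and 10.9 to 15.1 CPM in development. All adult libraries also lay below for polo, which had at most 0.29 CPM, whereas stg, CycA, CycB, dpn and wor overlapped. No marker was at 0 in all libraries, and the part of these cells in the results was not tested. In bulk samples, fewer cells of a type and less RNA per cell cannot be told apart.

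Few of the 55 genes were expressed. Only 10 (18.2%) reached 5 CPM in at least 3 of the 6 libraries, the level required for testing, against 48.2% of all rows and 9 of 42 (21.4%) other homeobox genes in the comparison list. The 10 were hth, exd, ara, caup and mirr of the TALE class, the POU gene pdm3, zfh2, onecut, the Pax gene toy and the Hox gene lab. All of these except lab had at least 5 CPM in every library. A further 24 genes reached 1 CPM in at least 1 library, and 21 stayed under 1 CPM in all 6.

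The expressed genes held nearly all of the signal. The 55 genes summed to 2612, 2766 and 2802 CPM in adult replicates 1, 2 and 3, and to 3415, 3669 and 3237 CPM in development replicates 1, 2 and 3. The 10 expressed genes made up 98.2% to 98.8% of that sum in adult and 98.9% to 99.0% in development. The TALE gene hth alone made up 58.3% to 60.9% in adult and 58.5% to 63.6% in development. The other 45 genes together came to 33.5 to 51.8 CPM in adult and 33.2 to 38.4 CPM in development.

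**Figure D1:**
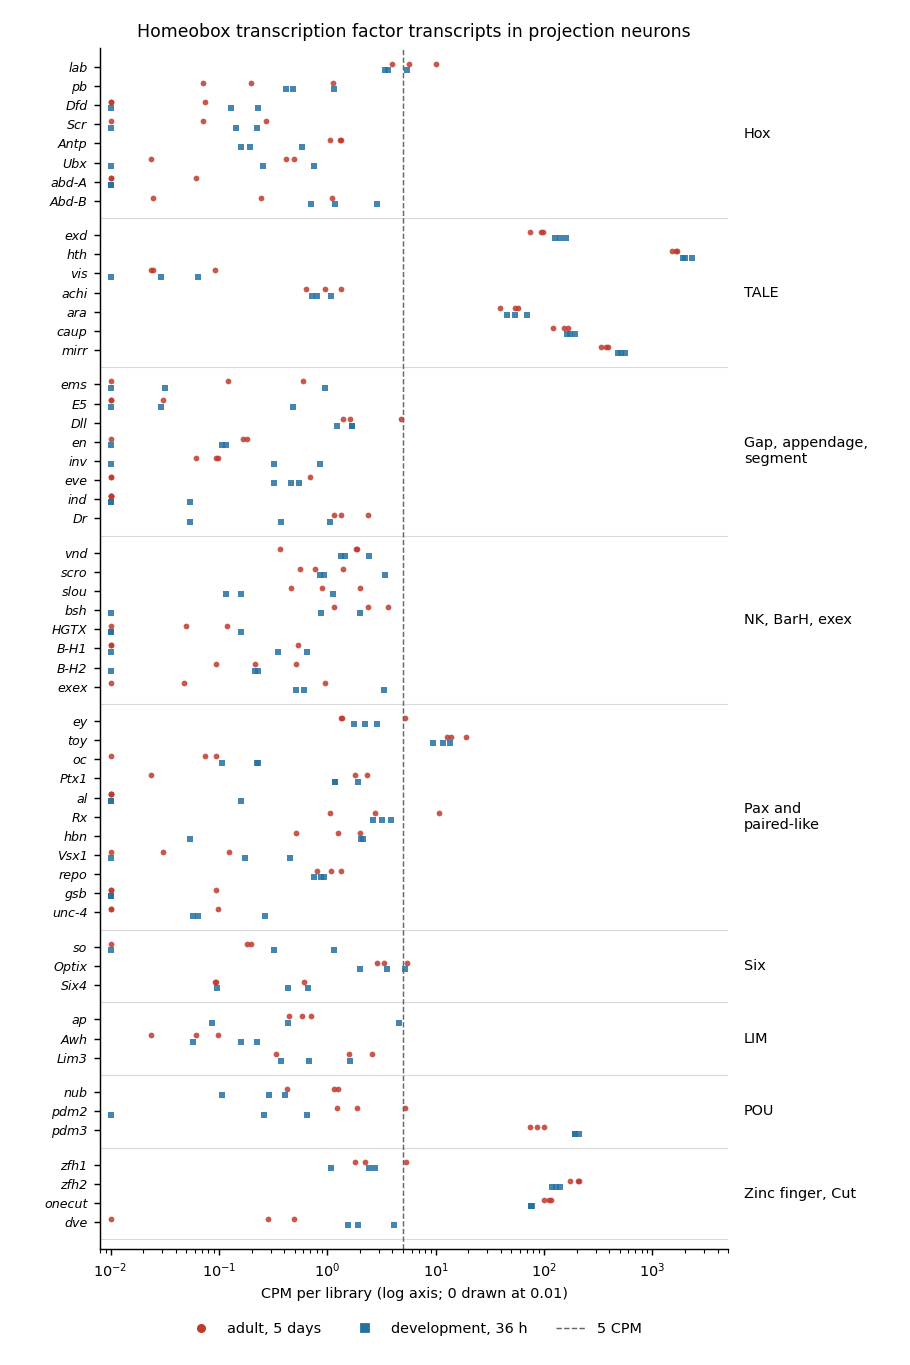
CPM of each of the 55 homeobox genes in the 3 adult libraries (red circles, drawn above) and the 3 development libraries (blue squares), on a log axis with a value of 0 drawn at 0.01. Genes are grouped by family, and the dashed line marks 5 CPM. Only 10 genes lie to the right of the line in 3 or more libraries, and hth lies farthest right.

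Between the stages, 2 of the 10 tested genes were higher in adult, zfh2 and onecut, and 4 were lower, hth, exd, mirr and pdm3 (limma on log2(CPM + 1), Benjamini-Hochberg adjusted p under 0.05 over all genes tested). Over all 6814 genes tested, 65.1% passed this threshold, 27.2% higher and 37.9% lower in adult. These 6 were also the genes whose groups did not overlap, 2 with all adult libraries above (28.8% of all tested genes) and 4 with all below (40.2%, and 69% in either direction). The share of 6 among 10 therefore lies near the background of the whole table. Fold changes were taken as adult minus development, with the pseudocount of 1 included, which understates the change of low genes. Their median was -0.22 for the 10 genes, beside -0.153 for all tested genes. The median size without regard to sign was 0.50 for the 10 genes and 0.64 for all tested genes, and pdm3 alone changed by at least 1 log2 unit, a size reached by 31.5% of all tested genes.

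**Figure D2:**
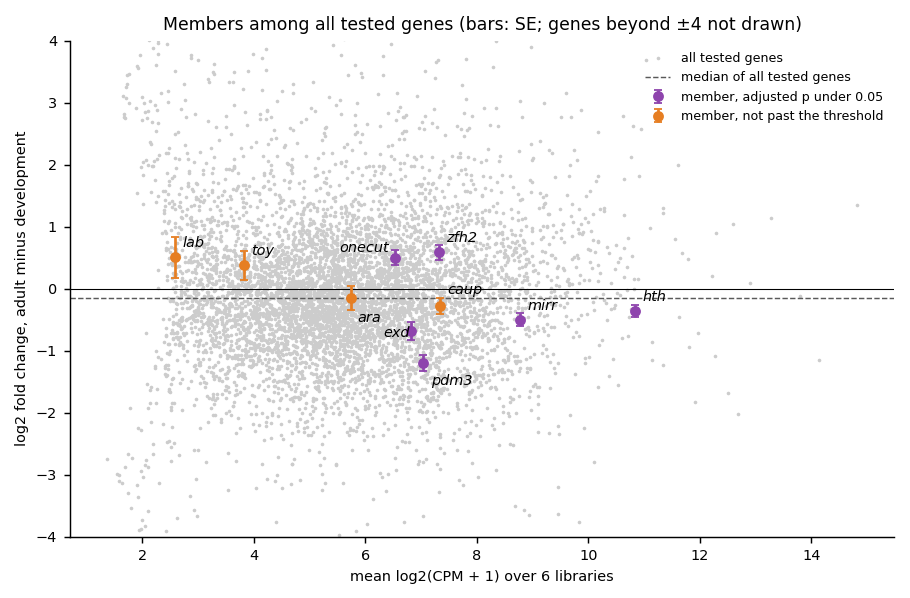
Log2 fold change, adult minus development, against mean log2(CPM + 1) over 6 libraries for all 6814 tested genes (grey) and the 10 tested homeobox genes (purple where the adjusted p was under 0.05, orange otherwise; bars are the SE; genes beyond 4 log2 units are not drawn). The dashed line is the median of all tested genes. The homeobox genes lie between -1.20 for pdm3 and 0.59 for zfh2, within the body of the grey points.

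Among the TALE genes, hth encodes the Meis-type protein that brings Exd into the nucleus, and exd encodes the Pbx-type partner of Hox proteins. In fly projection neurons both are known to be needed for correct targeting of dendrites. The gene hth (FBgn0001235, 3R, 10507561 to 10639568 in BDGP6.54) had 1522, 1685 and 1654 CPM in adult libraries, against 1998.5, 2333 and 1929 CPM in development libraries. Every adult library lay below every development library, the nearest libraries of the groups being 1685 CPM in adult and 1929 CPM in development. The means were 1620.2 ± 86.4 CPM in adult and 2087 ± 216 CPM in development (SD, n = 3 each), so that hth fell by 0.36 ± 0.0942 on the log2 scale (SE; limma, adjusted p = 0.00407). The call ended with no filter (limma, adjusted p = 0.0522) and with other scalings. The log2 fold change was -0.21 with median of ratios scaling (limma, adjusted p = 0.0670) and -0.18 with TMM scaling (limma, adjusted p = 0.126).

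The partner gene exd (FBgn0000611, X, 15992468 to 15996509) had 73.7, 94.5 and 98.9 CPM in adult libraries, against 127, 161 and 141 CPM in development libraries. The groups did not overlap, and exd fell by 0.68 ± 0.141 on the log2 scale (SE; limma, adjusted p = 0.000772). Because both genes fell unevenly, the ratio of hth to exd reads within a library was 18.4 ± 2.02 in adult and 14.6 ± 1.04 in development (SD, n = 3 each), higher in all 3 adult libraries (exact two-sided permutation p = 0.1, and no smaller value can be had from groups of 3). Per kb of exon, hth stood at 137 ± 7.29 CPM in adult and 176 ± 18.2 CPM in development, and exd at 27.0 ± 4.07 CPM per kb in adult and 43.4 ± 5.15 CPM per kb in development. On that scale hth lay at the 95.9th percentile of 14025 rows with a length in adult and at the 96.1st in development.

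The other expressed TALE genes were ara, caup and mirr, which form the Iroquois complex, neighbouring genes known for patterning the eye, wing and notum. They lie in that order on 3L on the same strand, with 13.6 kb between ara and caup and 71.8 kb between caup and mirr. The gene mirr (FBgn0014343, 12693639 to 12710249) had 376, 334 and 392.1 CPM in adult libraries, against 561, 488 and 509.7 CPM in development libraries. It fell by 0.50 ± 0.101 on the log2 scale (SE; limma, adjusted p = 0.000627), with no overlap between the groups.

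Its neighbour caup (FBgn0015919, 12609631 to 12621798) had 166, 153 and 121 CPM in adult libraries, against 194, 174 and 164 CPM in development libraries. Adult replicate 1 lay above the lowest development library, and caup missed the threshold (log2 fold change -0.28, 95% interval -0.57 to 0.00; limma, adjusted p = 0.0743). Without adult replicate 1 it passed (log2 fold change -0.38; limma, adjusted p = 0.0338). The gene ara (FBgn0015904, 12580672 to 12596018) had 39.3, 58.1 and 53.5 CPM in adult libraries, against 69.1, 53.6 and 45.5 CPM in development libraries. Its groups overlapped and it did not pass (log2 fold change -0.15, 95% interval -0.56 to 0.25; limma, adjusted p = 0.497). Its sign was not stable, at 0.01 without adult replicate 1, 0.01 without development replicate 1 and 0.03 with TMM scaling.

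Ratios and shares within a library were chosen after the values were seen and are given as description. The Iroquois genes summed to 564 ± 18.5 CPM in adult and 753 ± 61.3 CPM in development (SD, n = 3 each). Of that sum, mirr took 65.05% ± 3.999 in adult and 69.0% ± 1.57 in development, with overlapping groups (exact two-sided permutation p = 0.3). Per kb of exon, mirr was highest, caup next and ara lowest in both stages. In adult, mirr had 94.3 ± 7.72, caup 33.95 ± 5.45 and ara 17.1 ± 3.33 CPM per kb, and in development the same genes had 133 ± 9.61, 41.1 ± 3.49 and 19.0 ± 4.08 CPM per kb.

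The remaining TALE genes, vis and achi, encode TGIF-type proteins known from spermatogenesis and sit 0.918 kb apart as near copies. Their counts are uncertain because reads that match both copies may be left out or split. The gene achi had 0.641 to 1.33 CPM over the 6 libraries, and vis had at most 0.0916 CPM.

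**Figure D3:**
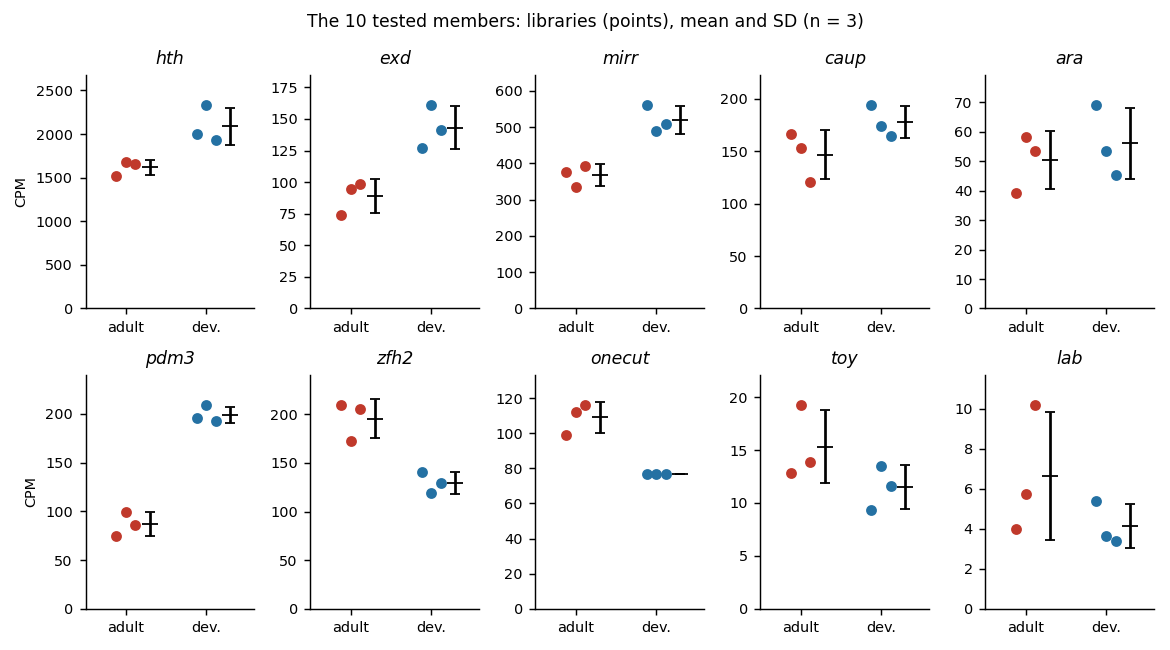
CPM of the 10 tested homeobox genes in each adult library (red, left) and each development library (blue, right), with mean and SD (n = 3) beside the points and axes starting at 0. The groups do not overlap for hth, exd, mirr, pdm3, zfh2 and onecut, and overlap for caup, ara, toy and lab.

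Among POU genes, pdm3 is known in the fly from olfactory receptor neurons, where it acts in receptor choice and axon targeting. It is on 2R (FBgn0261588) and had 74.7, 99.1 and 85.7 CPM in adult libraries, against 195, 209 and 193 CPM in development libraries. The highest adult library lay well under the lowest development library. The means were 86.5 ± 12.2 CPM in adult and 199 ± 8.62 CPM in development (SD, n = 3 each), so that pdm3 fell by 1.20 ± 0.125 on the log2 scale (SE; limma, adjusted p = 1.65e-06), more than any other of the 10 genes. Relative to hth, which also fell, the ratio of pdm3 to hth reads was 0.0533 ± 0.00503 in adult and 0.0957 ± 0.00549 in development, lower in all 3 adult libraries (exact two-sided permutation p = 0.1).

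The other POU genes, nub and pdm2, are neighbours on 2L, 29.0 kb apart, and encode the Pdm proteins of the temporal series of embryonic neuroblasts. Both were too low for the test. The gene pdm2 had 1.87, 1.22 and 5.19 CPM in adult libraries, against 0, 0.261 and 0.645 CPM in development libraries, and nub had 0.426, 1.25 and 1.16 CPM in adult, against 0.289, 0.405 and 0.108 CPM in development. All adult libraries lay above all development libraries for both genes, opposite to pdm3. The values of pdm2 rest on 330 recovered reads in adult and 21 in development.

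The 2 tested genes that rose carry other domains beside the homeodomain. The gene zfh2 encodes a protein of many zinc fingers and several homeodomains, and onecut encodes the fly's Cut-domain homologue of the vertebrate Onecut factors, known from neurons and photoreceptors. On chromosome 4, zfh2 (FBgn0004607, 501810 to 540874) had 209, 173 and 205 CPM in adult libraries, against 141, 119 and 129.5 CPM in development libraries. All adult libraries were higher, by 0.59 ± 0.119 on the log2 scale (SE; limma, adjusted p = 0.00066). Of its exonic bases, 18.7% overlap Thd1 on the opposite strand, and since the use of strand in counting is unknown the level of zfh2 is uncertain. Thd1 had 195 ± 18.5 CPM in adult and 193 ± 11.2 CPM in development (SD, n = 3 each; log2 fold change 0.02; limma, adjusted p = 0.911).

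The gene onecut (FBgn0028996, 598555 to 607649) had 99.1, 112 and 116 CPM in adult libraries, against 76.6, 76.7 and 77.0 CPM in development libraries. The development libraries were almost equal, and every adult library was higher, by 0.50 ± 0.121 on the log2 scale (SE; limma, adjusted p = 0.0025). While onecut rose, pdm3 fell. The ratio of onecut to pdm3 reads was 1.27 ± 0.121 in adult and 0.387 ± 0.0168 in development. Because both genes separated the groups in opposite directions, their ratio had to do so. Its p-value (exact two-sided permutation p = 0.1) was therefore fixed and adds nothing. Per kb of exon, onecut had 16.2 ± 1.30 and pdm3 16.1 ± 2.27 CPM in adult, which did not differ beyond their spread, and 11.4 ± 0.0293 and 37.0 ± 1.602 CPM in development.

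**Figure D4:**
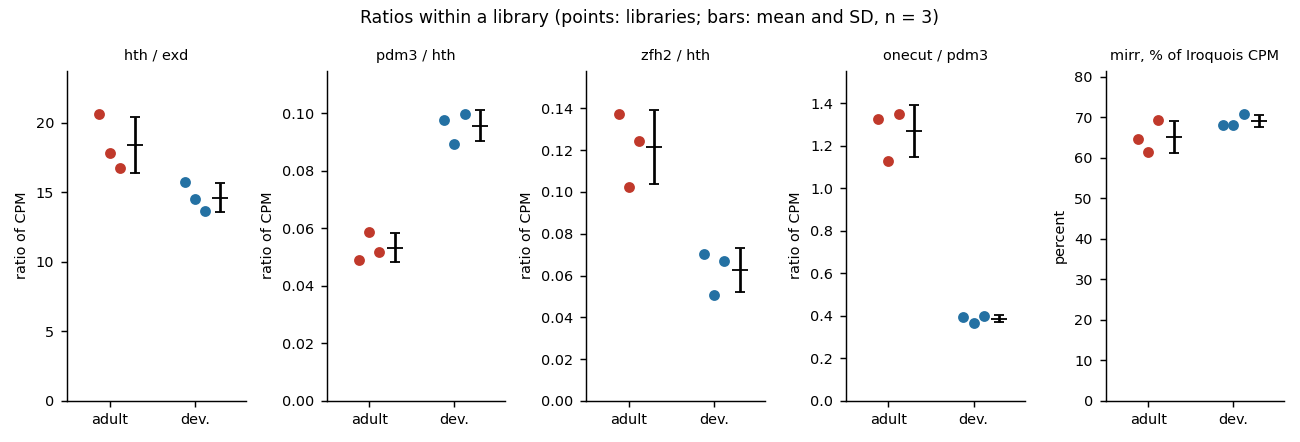
Ratios of CPM within each adult library (red, left) and each development library (blue, right), with mean and SD (n = 3), which do not depend on scaling between libraries. The groups do not overlap for hth to exd, pdm3 to hth, zfh2 to hth and onecut to pdm3, and overlap for the share of mirr in the Iroquois sum. For zfh2 to hth and onecut to pdm3 this had to be so, since the genes of each pair separated the groups in opposite directions.

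The remaining genes of the zinc-finger and Cut group were low. The repressor gene zfh1, known from mesoderm and motor neurons, had 2.25, 1.80 and 5.29 CPM in adult libraries, against 2.44, 1.07 and 2.74 CPM in development libraries, with overlapping groups. The gene dve, which represses rhodopsin genes in photoreceptors, had 0.284, 0.488 and 0 CPM in adult libraries, against 1.93, 4.17 and 1.56 CPM in development libraries. All adult libraries lay below all development libraries, on 28 recovered reads in adult and 233 in development.

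Of the Pax and paired-like genes, 1 of 11 was tested. The gene toy (FBgn0019650, chromosome 4, 989725 to 1007922) is a Pax6 gene that acts above its relative ey in the eye and is also known from the mushroom body. It had 12.8, 19.2 and 13.9 CPM in adult libraries, against 9.38, 13.5 and 11.6 CPM in development libraries. The groups overlapped and toy missed the threshold (log2 fold change 0.38, 95% interval -0.12 to 0.88; limma, adjusted p = 0.167). The gene ey had 1.33, 5.25 and 1.38 CPM in adult and 2.86, 2.23 and 1.77 CPM in development, below the level for testing.

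Both Pax6 genes also mark Kenyon cells of the mushroom body. The 7 Kenyon cell markers, toy and ey included, summed to 446 to 523 CPM in adult libraries and 462 to 597 CPM in development libraries. Most of it came from mub, and none of the 3 tested markers passed. Of the untested markers, sNPF had 4.67 to 6.35 CPM in adult and 0.591 to 1.83 CPM in development. The untested prt had 3.34 to 7.50 CPM in adult and 0.914 to 2.95 CPM in development. The groups overlapped for toy, ey, dac, Dop1R2 and mub. None of the 7 was at 0 in all libraries, and their part in the level of toy was not tested.

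Of the other paired-like genes, Rx, known from the developing brain, had 2.75, 1.07 and 10.7 CPM in adult libraries, against 3.18, 3.88 and 2.63 CPM in development libraries, its highest value resting on adult replicate 3. The glial gene repo had 0.811 to 1.34 CPM in adult and 0.753 to 0.931 CPM in development. The 9 glial markers, repo included, summed to 484 to 626 CPM in adult and 305 to 346 CPM in development. Of the 6 tested, 3 were higher in adult (Gs2, alrm and Gat) and 2 lower (nrv2 and wrapper). Gs2 had 256 to 375 CPM in adult and 44.1 to 61.9 CPM in development. By contrast nrv2, the most abundant by its mean over libraries, had 179 to 205 CPM in adult and 229 to 251 CPM in development. No glial marker was at 0 in all libraries. The remaining paired-like genes, Ptx1, hbn, oc, al, Vsx1, gsb and unc-4, had at most 2.34 CPM in any library. The head gap gene oc had at most 0.0947 CPM in adult and 0.232 CPM in development.

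The Hox genes were close to silent except lab. The gene lab (FBgn0002522, 3R, 6661427 to 6678590) is the Hox gene expressed farthest to the front of the fly and is known from the tritocerebrum and midgut. It had 3.98, 5.74 and 10.2 CPM in adult libraries, against 5.40, 3.65 and 3.39 CPM in development libraries. The groups overlapped, 3 of the 6 libraries reached 5 CPM, and lab missed the threshold (log2 fold change 0.51, 95% interval -0.20 to 1.22; limma, adjusted p = 0.192). The fold change rested on single libraries, at 0.19 without adult replicate 3 and 0.78 without adult replicate 1. Its next neighbour in the complex, pb, 29.2 kb away, had at most 1.16 CPM.

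The Hox genes other than lab had at most 2.85 CPM in any library, a value of Abd-B in development replicate 3. Antp, which specifies thoracic identity, had 1.35, 1.07 and 1.30 CPM in adult libraries, against 0.193, 0.579 and 0.161 CPM in development libraries. All adult libraries were higher, on 145 reads in adult and 29 in development. In the annotation 50.1% of its exonic bases also belong to CG46458 on the same strand, so its count is uncertain. The abdominal gene abd-A had 2 reads in adult and 0 in development, where 3 reads, the limit that a count of 0 allows, correspond to between 0.0868 and 0.161 CPM in a library.

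None of the genes of head, limb and segment patterning was tested. The limb gene Dll had 4.76, 1.40 and 1.62 CPM in adult libraries, against 1.70, 1.68 and 1.24 CPM in development libraries. The gap gene ems, known to act early in projection neuron lineages, had at most 0.592 CPM in adult and 0.955 CPM in development, and its neighbour E5 had at most 0.482 CPM. The segment polarity genes en and inv had at most 0.183 and 0.86 CPM over all libraries, and the pair-rule gene eve at most 0.688 CPM. The columnar gene ind had a single read in all 6 libraries, and Dr, the third columnar gene after vnd and ind, had 1.35, 1.16 and 2.36 CPM in adult libraries, against 1.06, 0.376 and 0.0538 CPM in development libraries.

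The NK, BarH and exex genes were likewise untested, with at most 3.66 CPM in any library. That value belonged to bsh, an identity gene of optic lobe neurons, which had 2.39, 3.66 and 1.16 CPM in adult libraries, against 2.02, 0.868 and 0 CPM in development libraries. The columnar gene vnd had 0.366 to 1.89 CPM in adult and 1.33 to 2.42 CPM in development. The motor neuron genes HGTX and exex had at most 0.161 and 3.33 CPM, while scro and slou, known from the optic lobe and from muscle founder cells, reached 3.45 and 2.01 CPM, and the neighbours B-H1 and B-H2 at most 0.645 and 0.516 CPM.

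Among the sine oculis family, Optix, known from the eye and optic lobe, had 3.36, 2.87 and 5.41 CPM in adult libraries, against 2.02, 5.27 and 3.55 CPM in development libraries, and overlapped between the groups. It lay just under the level for testing, with 2 libraries at 5 CPM. The genes so and Six4 had at most 1.16 and 0.666 CPM. Of the LIM genes, Lim3 had at most 2.61 CPM and Awh at most 0.225 CPM, and ap had 0.711 CPM or less in 5 of 6 libraries.

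Among the 45 genes that failed the filter, 4 had all adult libraries above all development libraries, namely Antp, Dr, nub and pdm2, and 2 had them all below, oc and dve. These names were picked out after their values were seen. Of all genes with reads that failed the same filter, 19.6% had groups that did not overlap, 6.9% with adult above and 12.7% with adult below, so 6 of 45 is no more than that background. With the filter at 1 CPM in 3 libraries, 15 of the 45 could be tested. Of these pdm2, Antp and dve passed (limma, adjusted p under 0.05), but each met that filter only through the group in which it was high, so these calls carry no weight. Of all genes tested only with that lower filter, 36.5% passed, and of all genes tested with it 60.2%.

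By chromosome, 3 of the 4 listed genes on chromosome 4 (toy, zfh2 and onecut, but not ey) were expressed. The corresponding counts were 3 of 9 on 3L, all Iroquois genes, 2 of 16 on 3R, 1 of 14 on 2R, 1 of 7 on X and 0 of 5 on 2L. The share of all genes expressed on each chromosome was not computed, so these counts show no trait of a chromosome. The distance between zfh2 and onecut is 57.7 kb, and they lie on opposite strands. The ratio of zfh2 to onecut reads was 1.81 ± 0.288 in adult and 1.69 ± 0.146 in development (SD, n = 3 each), with overlapping groups (exact two-sided permutation p = 0.7).

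Of 42 other homeobox genes listed, 9 were tested, of which 5 were lower in adult and 4 did not pass, beside 65.1% of all tested genes called and 37.9% lower. The list had a median log2 fold change of -0.38, beside -0.153 for all tested genes (limma, adjusted p under 0.05). With median of ratios scaling 4 were lower and 1 higher. The largest falls were in unpg and vvl. The gene unpg, known from embryonic neuroblasts, had 33.1, 27.3 and 22.1 CPM in adult libraries, against 86.3, 64.6 and 66.5 CPM in development libraries (log2 fold change -1.37 ± 0.181, SE; limma, adjusted p = 1.54e-05). The POU gene vvl, a lineage factor of projection neurons, had 17.7, 16.3 and 17.04 CPM in adult, against 36.7, 24.4 and 31.1 CPM in development (log2 fold change -0.80 ± 0.193, SE; limma, adjusted p = 0.00245).

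Homeodomain proteins act with partners and with chromatin factors. Of 11 genes for partners and corepressors 7 were tested and 1 passed, where 65.1% of all tested genes did. Among these tsh, a zinc-finger partner of Hox proteins and Hth, fell to 13.9, 10.6 and 13.7 CPM in adult libraries, against 21.2, 23.4 and 19.3 CPM in development libraries (log2 fold change -0.70 ± 0.201, SE; limma, adjusted p = 0.00718). The other 6 did not pass, among them its relative tio (log2 fold change 0.52 ± 0.220, SE; limma, adjusted p = 0.0503), the corepressor genes gro and CtBP, and the LIM cofactor gene Chi. The median of the list was 0.01.

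Polycomb and trithorax group genes keep Hox genes off or on. Of 45 listed, 43 were tested, 15 were lower in adult, 5 were higher and 23 did not pass, beside 37.9% lower and 27.2% higher among all tested genes, with a median log2 fold change of -0.25 (limma, adjusted p under 0.05). With median of ratios scaling the split was 10 lower and 7 higher, and over all tested genes 2180 lower and 2231 higher, against 2583 lower and 1856 higher as deposited. Pc, the founding Polycomb gene, had 61.2, 61.2 and 73.3 CPM in adult libraries, against 31.2, 28.8 and 25.6 CPM in development libraries (log2 fold change 1.16 ± 0.155, SE; limma, adjusted p = 1.66e-05). The histone demethylase gene Kdm2 rose by 0.87 ± 0.213 on the log2 scale (SE). The histone chaperone gene Caf1-55 fell by 1.32 ± 0.165 and the demethylase gene Utx by 1.09 ± 0.191 on that scale (SE).

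**Figure D5:**
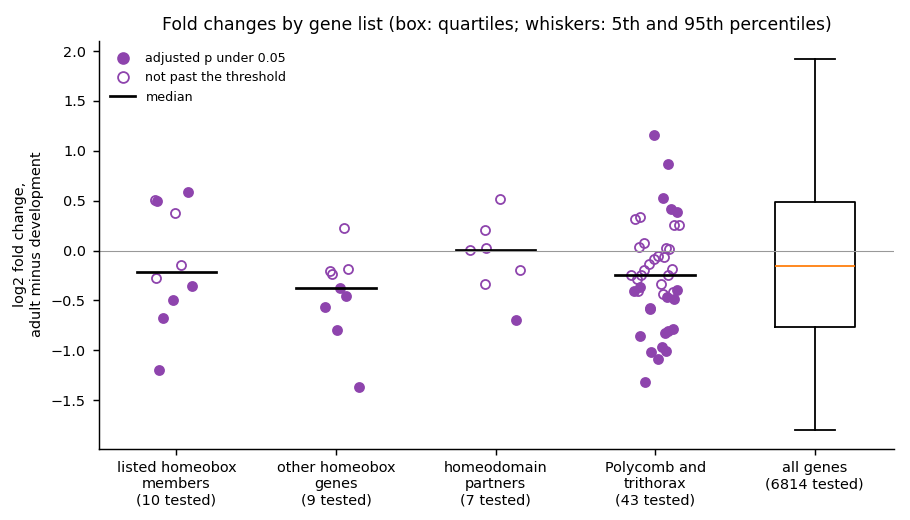
Log2 fold changes, adult minus development, for tested genes of the 55 listed homeobox genes, the other homeobox genes, the homeodomain partners and the Polycomb and trithorax group (filled where the adjusted p was under 0.05, open otherwise; black lines are medians), beside all 6814 tested genes (box for quartiles, whiskers for the 5th and 95th percentiles). Medians run from -0.38 for other homeobox genes to 0.01 for the partners, all inside the box of all genes.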

How the data were processed

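RNA-seq was analysed from 3 adult and 3 development libraries. The deposited table holds log2 values. Undoing log2(CPM + 1) gives a total of 1000000 in every library. The submitters' processing notes list STAR 2.4.2a and HTSeq 0.7.1 with no role. The sources used here state no build, annotation, filter or strand. In each library the low values lay on steps of 1 read (100% within 0.1 read), from which reads were recovered. Limits from them cover counting error only. A row with no symbol was left out, with at most 8.60e-05% of CPM in a library. Of 14138 rows, 14025 matched BDGP6.54 in Ensembl release 115, which gave positions and exon lengths.

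Genes with at least 5 CPM in at least 3 libraries were fitted with limma 3.58.1 in R 4.3.3 (eBayes with trend, two-sided, group as the only term, pseudocount 1), adjusted over all genes tested. Ratios were compared by exact permutation. The 55 genes and the lists were chosen with earlier results of these data known. The rule for named genes took all listed genes that passed the filter, the 6 highest by mean CPM that failed it (Rx, Optix, zfh1, ey, Dll and bsh), and up to 2 rises and 2 falls of each comparison list. Other genes under the filter, tio, gro, CtBP, Chi and Thd1, and markers other than the most abundant of a list, were named after their values were seen. Alternatives covered pseudocount, filter, scaling, replicate block, limma voom, trend, threshold and leaving out each library.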

Additional observations from a re-analysis of the deposited data

How the results depend on the processing

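The calls of exd, mirr, pdm3, zfh2 and onecut held in all 17 settings, the one reported and 16 alternatives. Among the alternatives, the threshold of 0.01 was the reported fit read at a stricter limit and not a new fit. Log2 fold changes ran from -0.77 to -0.50 for exd, -0.55 to -0.32 for mirr and -1.30 to -1.02 for pdm3 (limma). They ran from 0.53 to 0.77 for zfh2 and from 0.45 to 0.68 for onecut. The call of hth held in 14 settings and ended with no filter (limma, adjusted p = 0.0522) and under both scalings. The genes ara, toy and lab passed in none, and ara reversed to 0.03 with TMM scaling and to 0.01 without adult replicate 1 or development replicate 1, its range without each library in turn being -0.29 to 0.01. Log2 fold changes ran from 0.19 to 0.78 for lab, 0.21 to 0.55 for toy and -0.38 to -0.10 for caup. Of 55 listed genes, 4 were higher in adult with no filter and 4 with a filter of 1 CPM in 3 libraries, against 2 as reported, the added genes being pdm2 and Antp, which met the 1 CPM filter only through adult libraries. The median log2 fold change of the 10 tested genes was -0.068 with median of ratios scaling, -0.038 with TMM scaling, and between -0.313 and -0.106 without each library in turn. Of the partner genes, 2 passed in place of 1 with a pseudocount of 5, no filter, median of ratios scaling, TMM scaling and no trend, and 1 to 2 without each library in turn. Same-numbered libraries did not deviate together (r = -0.0284, 0.0423 and -0.0107 across genes, which are not replicates), and with the replicate number as a block caup passed (limma, adjusted p = 0.0479), while 2 listed genes were higher and 5 lower. The median of all genes was -0.007 with median of ratios and 0.022 with TMM scaling, against -0.153 as reported, and 2231 and 2291 genes were higher while 2180 and 2119 were lower. Genes under 1 CPM rest on few reads, so their differences are limited by depth.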

Other observations

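Several low genes owed their highest value to 1 library. The LIM gene ap, known from the wing and from peptidergic neurons, had 4.56 CPM in development replicate 1, against at most 0.43 CPM in development replicates 2 and 3. Rx reached 10.7 CPM in adult replicate 3 and 1.07 to 2.75 CPM in the other adult libraries. Adult replicate 3 also held the highest values of lab, pdm2 and zfh1, and adult replicate 1 that of Dll. No test was made of these single values.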
